A study of Drosophila melanogaster with 4 samples.

Results

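Cytosolic ribosomal protein mRNAs were examined in sequencing libraries of RNase T1-treated monosomes from mitochondrial lysates of Drosophila melanogaster larvae. A gene was taken as a member when its symbol began with RpL (large, 60S subunit) or RpS (small, 40S subunit), after the deposited counts of all transcript entries of a gene had been added up. This gave 92 genes of 17846 features outside mtDNA, 54 RpL and 38 RpS, and they were represented by 233 transcript entries. The 40S proteins encoded by sta and Rack1 carry other symbols and fell outside the rule.

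The DmAngel KO larvae were homozygous (Angel-/-) for a CRISPR deletion of Angel, the fly homologue of the mitochondrial RNA phosphatase ANGEL2, and came from a single line, KO-1. The control larvae (Angel+/+) were of the white Dahomey strain (wDah), and all fly lines, mutant and control, had been backcrossed for at least 6 generations into this Wolbachia-free white-eyed background. All larvae were third-instar larvae, taken 4 days after egg laying, and each group had 2 libraries (KO 1 and KO 2, control 1 and control 2). The study names its 2 samples per genotype as independent and the series description calls the replicates technical, so p-values measure only the spread between these libraries.

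Cytosolic ribosomes are built from rRNA and one copy of nearly every ribosomal protein, and all these proteins are encoded in the nucleus and translated in the cytoplasm. In flies, losing one copy of many of these genes gives the Minute phenotype of slow development and short, thin bristles, and several of them exist as paralogue pairs in which one copy is used mainly in the germ line. The mRNAs are among the most abundant short coding transcripts of growing cells, and their translation is set as a group by nutrient signalling through TOR. In the preparation studied here they are not the intended target, because the footprints were collected from mitochondrial lysates.

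The libraries held 8175475 and 8227127 reads (KO) and 4159707 and 1789947 reads (control), of which 566679 and 518033 (KO) and 1324943 and 457054 (control) lay outside mtDNA. That is 6.93% and 6.30% of the KO reads and 31.9% and 25.5% of the control reads. The counts of the deleted gene cannot check the labels, since angel had 1 and 1 reads in KO and 2 and 0 in control. The composition outside mtDNA also differed between the groups. The 6 fat body markers (Lsp1alpha, Lsp1beta, Lsp1gamma, Lsp2, Fbp1, Fbp2), larval storage proteins and their receptor among them, summed to 36972 and 23338 reads per 1000000 reads outside mtDNA (RPM) in KO and 312164 and 165484 RPM in control. The 5 salivary gland glue genes (Sgs3, Sgs4, Sgs5, Sgs7, Sgs8), which are switched on in the course of the third instar, had 1.76 and 0 RPM in KO and 170 and 328 RPM in control, with Sgs3, Sgs4, Sgs7 and Sgs8 at 0 reads in both KO libraries. In the edgeR test described below, Lsp1alpha, Lsp1beta and Lsp1gamma were lower in KO. Fbp1, Fbp2, Lsp2 and the tested glue genes Sgs3, Sgs5 and Sgs7 were also called lower, but they passed the filter on low counts only through the control libraries, where they are high, so their calls add nothing to their values. Of the 8 midgut markers 2 were lower in KO (2 by DESeq2), against 6.99% of all genes tested. Their sums were 7214 and 3838 RPM in KO and 7494 and 5317 RPM in control. Of the 5 larval cuticle genes 2 were lower by edgeR and 4 by DESeq2. For 4 of the 5 both KO libraries lay below both controls in RPM, against 10.4% of all genes tested. The cuticle genes summed to 9002 and 6395 RPM in KO and 8800 and 10301 RPM in control. None of 7 muscle markers passed the edgeR test (1 at an unadjusted p under 0.05, 0 by DESeq2), with 10161 and 5195 RPM in KO and 2933 and 3433 RPM in control. Most of this sum was Mhc (5684 and 2365 RPM in KO, 1531 and 1595 in control) and Act57B (3429 and 2081 in KO, 922 and 971 in control). Mhc, Act57B and Mlc1 lay above both controls in both KO libraries, as did 57.0% of all genes tested in RPM. The groups overlapped in RPM for wupA, up, Tm2 and Mlc2, whose fitted log2 fold changes were below 0. None of 4 tested blood cell markers (Hml, NimC1, He, Ppn and vkg were listed) passed the edgeR test (0 at an unadjusted p under 0.05, 0 by DESeq2), with 10016 and 10360 RPM in KO and 6486 and 8802 RPM in control. Most of this sum was vkg, with 8365 and 7785 RPM in KO and 5049 and 6656 RPM in control. Hml, NimC1, He and Ppn each overlapped between the groups in RPM. Of the neuronal markers 0 of 2 tested passed (1 at an unadjusted p under 0.05, 0 by DESeq2), with 84.7 and 106 RPM in KO and 86 and 70 RPM in control, and of the germ line markers only vas had reads. The part of these differences in the results on ribosomal protein mRNAs was not tested, and fewer cells of a type and less RNA per cell cannot be told apart in such bulk samples.

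The 92 ribosomal protein genes together held 3072 and 1876 reads in KO and 4604 and 2229 reads in control. As a share of the reads outside mtDNA these were 0.542% (95% Wilson interval 0.523 to 0.562) in KO 1 and 0.362% (0.346 to 0.379) in KO 2, against 0.347% (0.338 to 0.358) in control 1 and 0.488% (0.468 to 0.508) in control 2. The intervals cover counting error only, and the 2 libraries of each group lay further apart than these intervals are wide. In RPM, the sum was 5421 and 3621 in KO (4521 ± 1273, SD, n = 2) and 3475 and 4877 in control (4176 ± 991, SD, n = 2), so the groups overlapped. The difference of mean log2 sums was 0.11, a fold of 1.08, which was within the spread between replicates (p = 0.667 in an exact two-sided permutation test, in which 2 against 2 libraries cannot give less than 0.333). Libraries with the same number differed in opposite ways, by a log2 of 0.64 for number 1 and -0.43 for number 2.

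The denominator decided which group was higher. Over all reads of a library, mtDNA-encoded ones included, the ribosomal protein mRNAs had 376 and 228 reads per 1000000 in KO and 1107 and 1245 in control, a fold of 0.249 with no overlap between the groups (p = 0.333 in the exact two-sided permutation test, which cannot be lower here). All reads outside mtDNA were a smaller share on this scale, 6.93% and 6.30% in KO against 31.9% and 25.5% in control. An edgeR fit on this scale called 2672 of 4247 genes lower, so the drop is not particular to these mRNAs. With the 6 fat body markers left out of the denominator, a choice made after seeing the data, the sums were 5629 and 3708 reads per 1000000 in KO and 5052 and 5844 reads per 1000000 in control, which overlapped again.

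**Figure D1:**
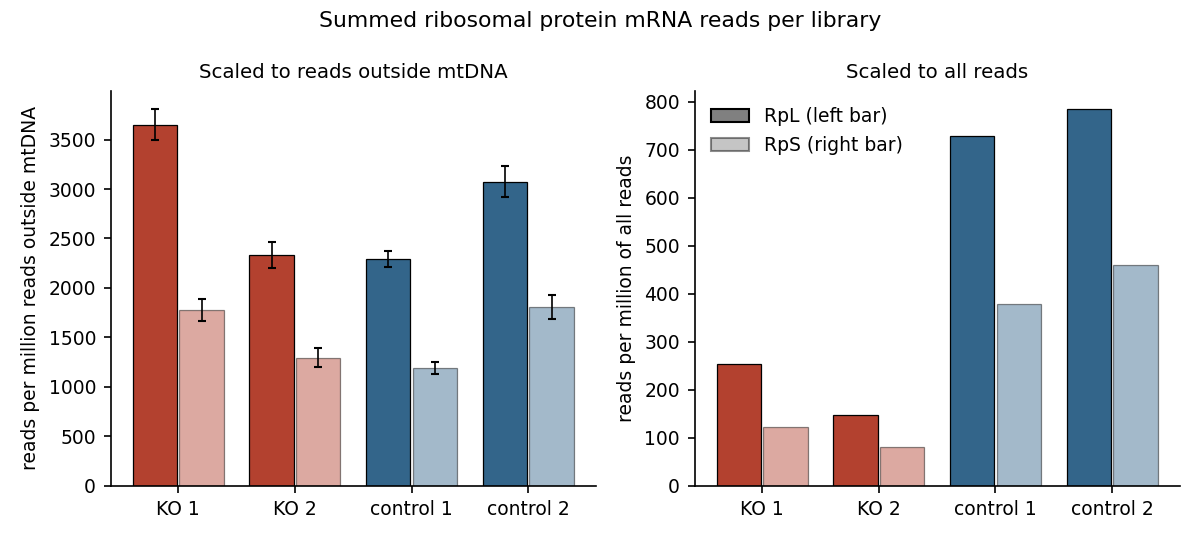
Summed reads of the RpL genes (left bar of each pair) and the RpS genes (right bar) in the 2 DmAngel KO libraries and the 2 control libraries, in RPM (left panel, with 95% Wilson intervals) and against all reads, mtDNA included (right panel, reads per 1000000). On the left panel the groups overlap, with RpL sums of 3646 and 2330 in KO and 2289 and 3072 in control, and on the right panel both KO libraries lie below both controls. All reads outside mtDNA were also a smaller share of the library in KO (6.93% and 6.30%) than in control (31.9% and 25.5%).

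The balance of the subunits was compared within each library, which needs no library size. The RpL genes summed to 3646 and 2330 RPM in KO and 2289 and 3072 RPM in control. The RpS genes summed to 1775 and 1291 RPM in KO and 1186 and 1805 RPM in control. RpL reads therefore outnumbered RpS reads by a factor of 2.05 and 1.80 in KO and 1.93 and 1.70 in control. The difference of the mean log2 ratio was 0.09 and did not exceed the spread between replicates (p = 0.667, exact permutation test, two-sided). Without RpL34a, which was left out after its values were seen, the ratios were 1.92 and 1.76 in KO and 1.92 and 1.69 in control (p = 1, exact permutation test, two-sided).

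Expressed as RPM per kilobase of coding sequence (RPKM), the members were spread narrowly. Over the tested genes of each subunit, the median level of the 4-library mean was 92.5 RPKM for the 47 RpL genes (quartiles 80.6 and 122) and 101 RPKM for the 31 RpS genes (quartiles 85.9 and 118). By library, the RpL medians were 116 and 77.2 RPKM in KO and 78.5 and 102 RPKM in control, and the RpS medians were 127 and 82.0 RPKM in KO and 75.3 and 113 RPKM in control. KO 1 and control 2 were the higher library of their group for both subunits.

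A few genes stood well above this level. RpL41, which encodes the shortest protein of the ribosome, had 701 and 643 RPKM in KO and 639 and 1206 RPKM in control, on a coding sequence of 78 nt. RpLP2, one of the acidic proteins of the stalk that recruits elongation factors, had 516 and 694 RPKM in KO and 574 and 960 RPKM in control. RpL38, a small protein near the exit of the peptide tunnel, had 398 and 263 RPKM in KO and 198 and 318 RPKM in control. In each of these 3 genes the KO and control libraries overlapped. RpL22 (29.5 RPKM, 4-library mean) and RpL34b (37.7 RPKM) were the lowest of the tested members, and RpS28b (176 RPKM) was the highest of the small subunit. The order of the members by RPM was similar in libraries of one genotype, with a Spearman coefficient over 92 genes of 0.892 between the KO libraries and 0.901 between the controls, a description in which gene length and the shared library are common to all points.

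By reads alone, without regard to length, RpLP2 was the top member. It had 100 and 123 reads in KO (176 and 237 RPM) and 260 and 150 reads in control (196 and 328 RPM). RpL5, which binds 5S rRNA, had 197 and 119 reads in KO (348 and 230 RPM) and 238 and 69 reads in control (180 and 151 RPM). RpL4, a core protein of the large subunit with a loop in the peptide tunnel, had 126 and 67 reads in KO (222 and 129 RPM) and 126 and 52 reads in control (95.1 and 114 RPM). For RpL5 and RpL4 both KO libraries lay above both controls in RPM, as did 57.0% of all tested genes. On the TMM-scaled counts described below, the groups overlapped for RpL5 and RpL4. For RpLP2 the groups overlapped in RPM. RpL3, at the peptidyl transferase centre, had 145 and 88.8 RPM in KO and 89.8 and 81.0 RPM in control, and RpL10, which helps position tRNA, had 124 and 83.0 RPM in KO and 84.5 and 129 RPM in control.

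In the small subunit, RpS2 and RpS3A had the highest mean RPM. RpS3A had 108 and 96.5 RPM in KO and 80.0 and 105 RPM in control. RpS2, at the mRNA entry channel, had 124 and 83.0 RPM in KO and 71.7 and 120 RPM in control. RpS5a, at the mRNA exit, had 109 and 67.6 RPM in KO and 61.1 and 72.2 RPM in control. The groups overlapped for all 3, as they did for RpS4 (118 and 52.1 RPM in KO, 53.6 and 101 RPM in control) and for RpS6, the substrate of S6 kinase (82.9 and 71.4 RPM in KO, 70.2 and 85.3 RPM in control). RpL32, whose mRNA the study used as a loading control under its older name RP49, had 22 and 20 reads in KO (38.8 and 38.6 RPM) and 46 and 29 reads in control (34.7 and 63.4 RPM), again with overlap.

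**Figure D2:**
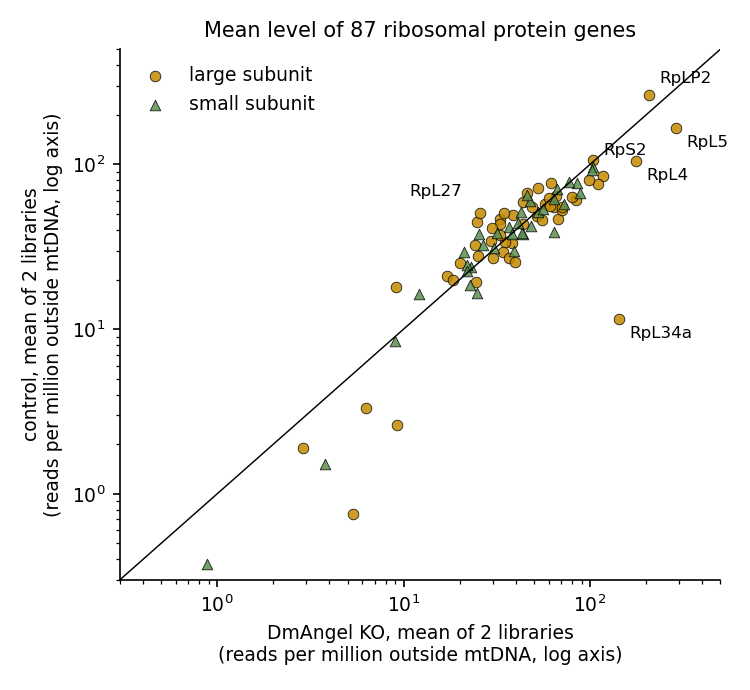
Mean RPM of the 2 DmAngel KO libraries (horizontal, log axis) against the mean of the 2 control libraries (vertical, log axis) for the 87 ribosomal protein genes with reads in both groups, circles for the large and triangles for the small subunit, with the line of equal levels. Most genes lie close to the line, RpLP2 is above it, RpL5 and RpL4 are below it, and RpL34a lies far below it towards higher KO levels. In RPM, 57.0% of all tested genes had both KO libraries above both controls.

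Changes of single genes were tested with the quasi-likelihood test of edgeR over all genes outside mtDNA, with Benjamini-Hochberg adjustment over the 3003 genes that passed the filter on low counts and a threshold of 0.05. Libraries were scaled with TMM factors, which set the bulk of genes to a fold change near 1, so a fold change from this fit is relative to the typical gene outside mtDNA. The median log2 fold change of all genes was 0.01 on this scale. Of the 92 members 78 were tested (47 RpL, 31 RpS), with 50 to 633 reads over the 4 libraries, and 14 were not, with 0 to 39 reads.

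One member, RpL34a, was higher in KO, against 4.16% of all genes tested, and 2 members, RpL27 and RpL14, were lower, against 6.99% of all genes. RpL34a passed the filter on low counts only through the KO libraries, where it is high, so this call adds nothing to its values. At an unadjusted p under 0.05, 13 of 78 members were lower, against 15.2% of all genes, and 1 was higher. All 3 called genes belong to the large subunit. Of the 31 RpS genes 0 passed the edgeR threshold, with 2 lower at an unadjusted p under 0.05 and 0 called by DESeq2.

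Although few members passed the test one by one, nearly all lay on one side of the typical gene. The fitted log2 fold change was below 0 for 74 of 78 members, against 49.5% of all genes tested, and only RpL34a (2.97), RpL5 (0.10), RpS13 (0.08) and RpL4 (0.06) were above 0. The median was -0.64 for the members, -0.67 for the RpL genes and -0.62 for the RpS genes. The spread was also small, with an SD of the log2 fold changes of 0.54 over members and 1.19 over all genes, and a median standard error of 0.43 per member. On TMM-scaled counts both KO libraries lay below both controls for 48 of the 78 members, against 27.9% of all genes, and above both controls for 1 member, against 29.1% of all genes. Genes of one pathway share libraries and are not independent replicates, so these counts are a description.

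**Figure D3:**
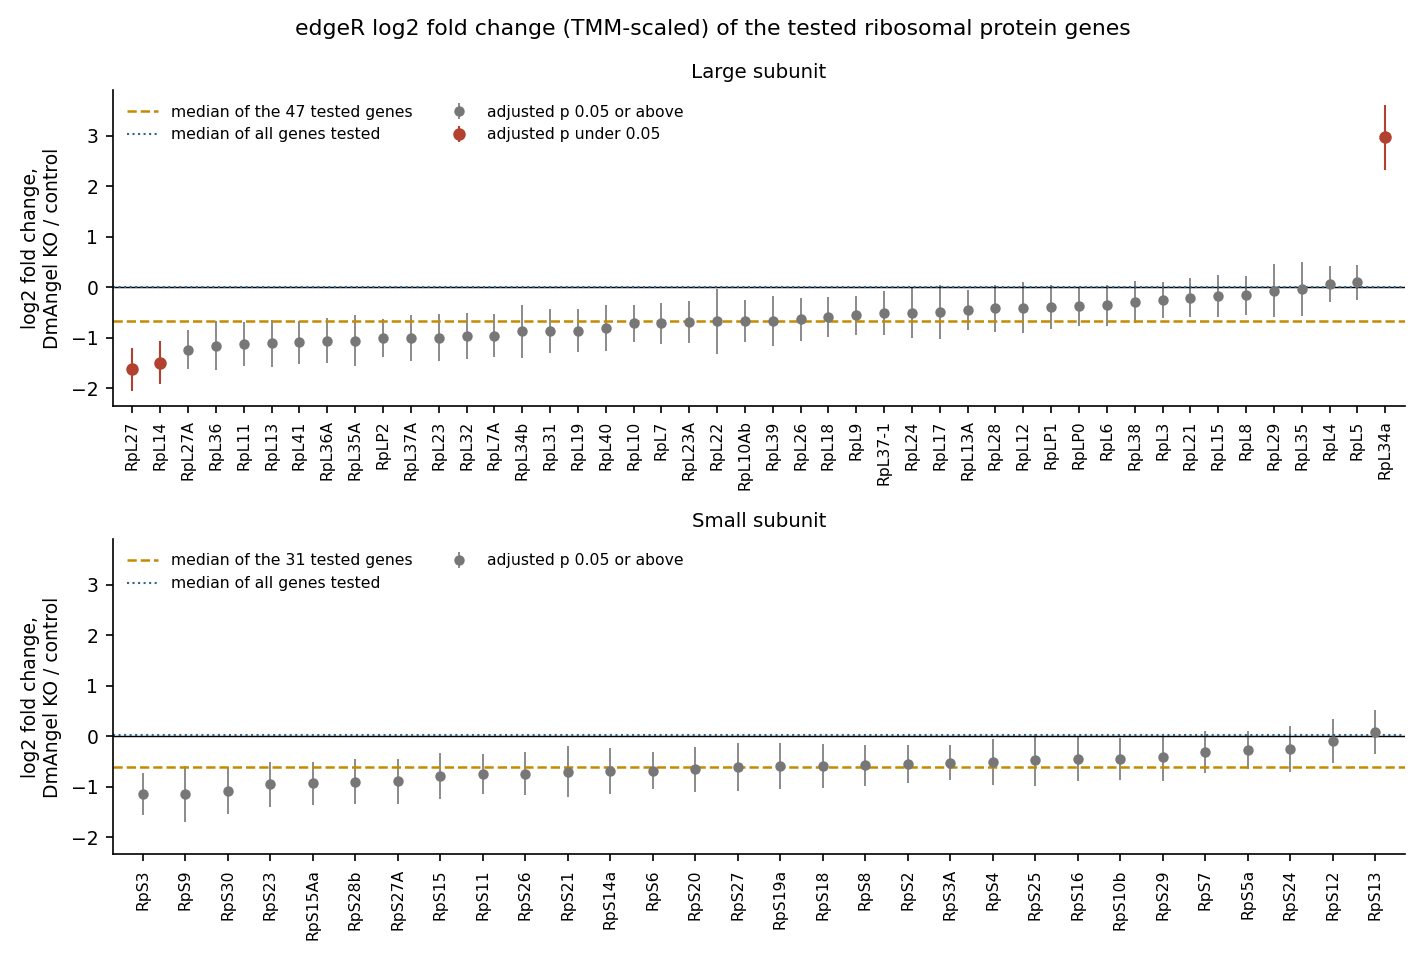
Fitted log2 fold change (DmAngel KO over control, TMM-scaled counts, edgeR) with its standard error for 46 of the 47 tested RpL genes (top) and 30 of the 31 tested RpS genes (bottom), sorted by value. Dashed lines mark the median over all tested genes of each subunit (-0.67 and -0.62), the dotted line marks the median of all genes tested (0.01), and the red points are the 3 genes past the threshold.

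The direction depended on the scale. In plain RPM both KO libraries lay below both controls for 5 members (RpL14, RpL27, RpL27A, RpL36A, RpS30), against 10.4% of all genes, and above both controls for 5 members (RpL4, RpL5, RpL34a and RpS12 among them), against 57.0% of all genes. Fitted without TMM factors, the median log2 fold change was 0.05 for the members and 0.70 for all genes, and 33 of 78 members were below 0. With the library size taken over all reads, mtDNA included, the medians were -2.06 for the members and -1.50 for all genes, and 79 of 80 tested members were lower and 1 higher, beside 2672 lower and 31 higher of 4247 genes. With the fat body markers left out of the library size and no TMM factors, they were -0.32 and 0.29. Relative to the median of all genes, the median of the members was lower in each of the 15 fits run, by 0.45 to 1.09 on the log2 scale. A change of scaling moves members and all genes nearly alike, so the fits that differ in scaling could hardly change this difference. All fits also drew on the same libraries.

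**Figure D4:**
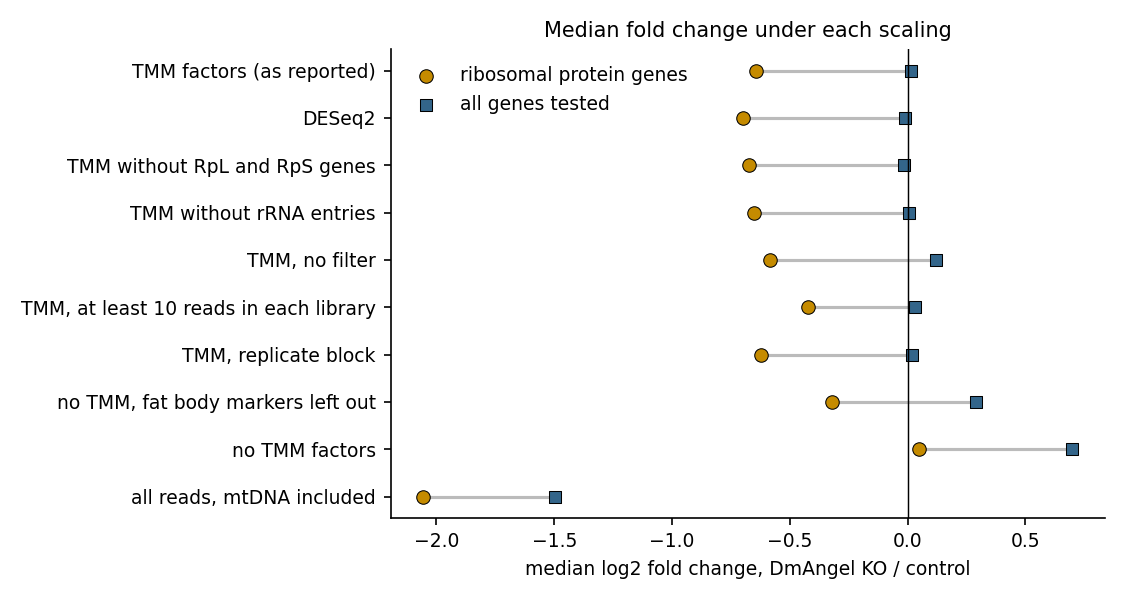
Median log2 fold change (DmAngel KO over control) of the tested ribosomal protein genes (circles) and of all genes tested (squares) under 10 ways of scaling or filtering the same counts. The circle lies left of the square in each line, while its position relative to 0 runs from -2.06 with all reads as the library size to 0.05 without TMM factors. A change of scaling moves circle and square nearly alike, so it does not test their order.

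The members are well expressed genes, and among the genes tested the fold change moved with level. The filter on low counts acts before the TMM scaling, so the lowest bins also depend on which libraries let a gene pass. The part of the filter in this trend was not tested. When all tested genes were divided by mean level into 6 equal bins, the median log2 fold change of the other genes ran from 0.58 in the lowest bin through 0.15, 0.07, -0.01 and -0.16 to -0.49 in the highest. The members' medians in the same bins were -0.77 (2 genes), -0.67 (9 genes), -0.73 (16 genes), -0.71 (26 genes), -0.51 (23 genes) and -0.45 (2 genes). In the middle bins, which hold most members, the members were lower than the other genes, and in the highest bin the medians were close.

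RpL34a, a protein of the large subunit, had 133 and 27 reads in KO and 13 and 6 reads in control, or 235 and 52.1 RPM in KO and 9.81 and 13.1 RPM in control. Both KO libraries were above both controls, and KO 1 was far above KO 2. The log2 fold change was 2.97 ± 0.64 (SE), with an adjusted p of 0.0106 by edgeR. The gene lies at chr3R:26058420-26059267 on the minus strand of BDGP6.54, and no other annotated gene overlaps it. Its 3 transcript entries, which encode the same 489 nt coding sequence, had 48, 43 and 42 reads in KO 1, 4, 11 and 12 in KO 2, 3, 5 and 5 in control 1, and 3, 1 and 2 in control 2. The gene was called in 12 of 13 alternative fits that could test it, all drawn from the same libraries. The exception was the fit without KO 1, in which the log2 fold change was 1.49. RpL34a passed the filter on low counts only through the KO libraries, where it is high. Its calls in fits with that filter therefore add nothing to its values. It was also called without a filter.

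RpL34b, the paralogue of RpL34a, had 14 and 5 reads in KO (24.7 and 9.65 RPM) and 21 and 12 reads in control (15.8 and 26.3 RPM). Its groups overlapped, with a log2 fold change of -0.87 ± 0.52 (adjusted p 0.300, edgeR). RpL34a thus took 90.5% and 84.4% of the reads of the pair in KO and 38.2% and 33.3% in control. The pair summed to 259 and 61.8 RPM in KO and 25.7 and 39.4 RPM in control. Both KO sums lay above both control sums in RPM, as did 57.0% of all tested genes. With RPM divided by the TMM factors, RpL34a had 43.4 in KO 2 and 16.5 in control 2. RpL34b had 8.04 and 33.0 in these libraries, so the sums of KO 2 and control 2 were close on that scale. In KO 1, RpL34a alone had 175 on that scale, far above RpL34a and RpL34b in either control. How reads that match both genes were divided is not given in the sources used here, which leaves the split between the pair uncertain.

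RpL27, a protein of the large subunit, had 16 and 12 reads in KO and 56 and 27 reads in control, or 28.2 and 23.2 RPM in KO and 42.3 and 59.1 RPM in control. Both KO libraries were below both controls. The log2 fold change was -1.62 ± 0.43 (SE) with an adjusted p of 0.0305 by edgeR. The gene lies at chr3R:25683623-25685051 on the minus strand and overlaps Idh3g on the plus strand, and only reads in the sense direction of an entry were aligned by the authors. It was called in 8 of 13 alternative fits, with adjusted p from 4.46e-04 to 0.138, and not with DESeq2, without TMM factors (with or without the fat body markers in the library size), without KO 1 or without KO 2.

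RpL14, at chr3L:8601006-8602392 on the plus strand with 2 snoRNA genes within it, had 15 and 12 reads in KO (26.5 and 23.2 RPM) and 51 and 23 reads in control (38.5 and 50.3 RPM). Both KO libraries were below both controls. The log2 fold change was -1.49 ± 0.43 (SE, adjusted p 0.0458, edgeR), close to the threshold, and it was called in 6 of 14 alternative fits, with adjusted p from 5.63e-04 to 0.186, and was also lost without a filter, with at least 10 reads in each library and on transcript entries. RpL27A, whose log2 fold change of -1.23 ± 0.39 came next, stayed outside the threshold (adjusted p 0.0617, edgeR; 0.0224 with replicate number as a block) with 52.9 and 38.6 RPM in KO and 64.2 and 70.0 RPM in control.

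The calls changed when single libraries were left out. Each such fit had 1 library in a group, so only medians are given here. Without KO 1 the median log2 fold change was -0.96 for the members and -0.0056 for all genes. Without KO 2 the medians were -0.55 and -0.02. They were -1.04 and 0.05 without control 1, and -0.52 and 0.07 without control 2. In these fits the lone library of a group was assumed to vary like the others. DESeq2 called only RpL34a.

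**Figure D5:**
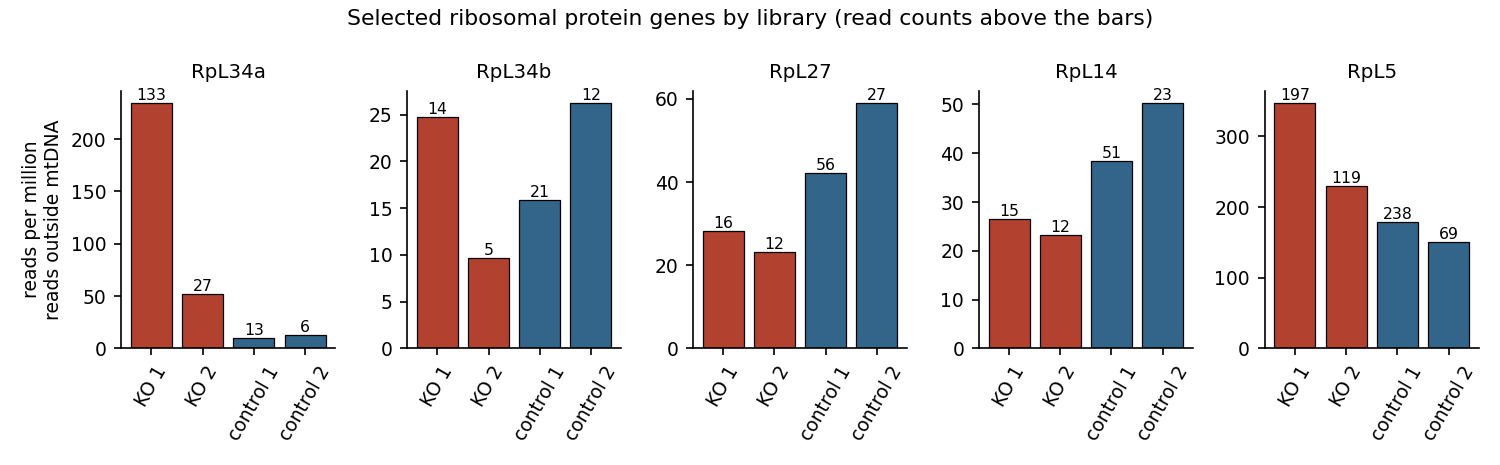
RPM by library, with the read count above each bar, for RpL34a, its paralogue RpL34b, the 2 genes called lower (RpL27, RpL14) and RpL5, the DmAngel KO libraries left and the control libraries right. RpL34a has 133 and 27 reads in KO against 13 and 6 in control, while RpL27 and RpL14 have 12 to 16 reads in KO against 23 to 56 in control.

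The members were then grouped by their role in the ribosome, and each role list had 0 genes past the threshold by edgeR and 0 by DESeq2. Since 74 of 78 tested members were below 0 on the TMM scale, a list with all or nearly all genes below 0 is near the share of the members and shows nothing about a role. Among the stalk proteins RpLP0, RpLP1, RpLP2 and RpL12, which bind elongation factors, 4 of 4 tested were below 0, with log2 fold changes of -0.998 to -0.375, a median of -0.39 and 1 at an unadjusted p under 0.05. Of the pair that joins 5S rRNA to the large subunit, RpL11 had -1.13 ± 0.44 and RpL5 had 0.10 ± 0.34, so the partners differed in sign, with 1 at an unadjusted p under 0.05. RpL11 had 37.1 and 29.0 RPM in KO and 36.2 and 56.9 RPM in control, and the groups overlapped.

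The 9 proteins around the exit of the peptide tunnel (RpL17, RpL19, RpL22, RpL23A, RpL26, RpL31, RpL35, RpL38, RpL39), where nascent chains meet the factors that target them, were all below 0, from -0.87 to -0.03 with a median of -0.67 and 0 at an unadjusted p under 0.05. In the 40S subunit, the 5 proteins at the mRNA entry and the decoding site (RpS2, RpS3, RpS15, RpS23, RpS30) ranged from -1.14 to -0.55 with a median of -0.95, and 2 had an unadjusted p under 0.05. The lowest of them was RpS3, with 49.4 and 42.5 RPM in KO and 49.1 and 81.0 RPM in control. The 4 tested proteins at the mRNA exit (RpS5a, RpS14a, RpS26, RpS28b) had a median of -0.71, with 0 at an unadjusted p under 0.05.

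RpL40 and RpS27A, which are made as fusions with ubiquitin, had log2 fold changes of -0.81 ± 0.45 and -0.89 ± 0.44 (adjusted p 0.268 and 0.213, edgeR), with 0 of 2 at an unadjusted p under 0.05. RpL40 had 40.6 and 25.1 RPM in KO and 28.7 and 45.9 RPM in control. RpS27A had 38.8 and 46.3 RPM in KO and 37.0 and 65.6 RPM in control. RpL41 had 54.7 and 50.2 RPM in KO and 49.8 and 94.1 RPM in control, and the libraries of these 3 genes overlapped between groups.

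The remaining stalk proteins were close in level to the other members. RpLP0, the base of the stalk, had 127 and 69.5 RPM in KO and 67.9 and 91.9 RPM in control, and RpLP1 had 72.4 and 38.6 RPM in KO and 37.7 and 54.7 RPM in control. Both overlapped between the groups. The 40S proteins outside the symbol rule were similar. The gene sta, which encodes the protein known as RPSA in mammals, had 91.8 and 56.0 RPM in KO and 38.5 and 81.0 RPM in control, a log2 fold change of -0.32 ± 0.45. Rack1, a scaffold on the head of the 40S subunit, had 141 and 69.5 RPM in KO and 92.8 and 109 RPM in control, a log2 fold change of -0.63 ± 0.38. Neither passed the test (adjusted p 0.690 and 0.305, edgeR).

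In several other paralogue pairs, one gene held nearly all reads. Over the 4 libraries, RpL10Aa had 1 read against 185 for RpL10Ab, RpS19b had 2 against 136 for RpS19a, and RpS10a had 2 against 112 for RpS10b. RpS5b, known for its use in the female germ line, had 8 against 211 for RpS5a, and RpLP0-like had 8 against 240 for RpLP0. RpL37-2, RpS28a and RpS28-like had 0 reads in all 4 libraries, against 80 for RpL37-1 and 95 for RpS28b. With 0 reads, up to 3 reads are allowed by counting error in each library, or 5.29 and 5.79 RPM in KO and 2.26 and 6.56 RPM in control.

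Minor paralogues with more reads were RpL7-like (12 against 168 for RpL7), RpL24-like (15 against 93 for RpL24) and RpL22-like, known for its use in the male germ line (8 against 66 for RpL22). RpS15Ab held 32.0% and 14.3% of the reads of its pair with RpS15Aa in KO and 11.4% and 27.3% in control. RpS14b held 30.0% and 38.9% of its pair with RpS14a in KO and 33.3% and 45.5% in control. In these 2 pairs the shares overlapped between the groups. How reads that match both genes of a pair were divided is not given, so the splits of these and the other pairs are uncertain. RpL24-like had 5 and 5 reads in KO (8.82 and 9.65 RPM) and 4 and 1 reads in control (3.02 and 2.19 RPM). RpL22-like had 5 and 1 reads in KO (8.82 and 1.93 RPM) and 2 and 0 reads in control (1.51 and 0 RPM). For both, the 2 KO libraries lay above the 2 controls in RPM, as did 57.0% of all tested genes, on so few reads that neither gene was tested.

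The 14 members not tested were RpL7-like, RpL10Aa, RpL22-like, RpL24-like, RpL30, RpL37-2, RpLP0-like, RpS5b, RpS10a, RpS14b, RpS15Ab, RpS19b, RpS28a and RpS28-like. All but RpL30 belong to a paralogue pair listed above. RpL30 is a 60S protein without a listed paralogue, and it had 6 and 4 reads in KO and 19 and 10 reads in control, with both KO libraries below both controls in RPM.

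The transcript entries of one gene often differ only outside the coding sequence, and in that case reads did not follow entry length. In 21 members with entries of the same coding sequence whose lengths differed at least 1.5-fold, the longest entry was a median of 1.76 times as long as the shortest but had a median of 1.11 times its reads (range 0.771 to 1.68), and the ratio of reads was below the ratio of lengths in 21 of 21. For RpL5, entries of 1024 and 3835 nt had 130 and 182 reads over the 4 libraries. For RpL38, entries of 401 and 1013 nt had 81 and 83 reads. The sources used here do not say how reads that match several entries of a gene were divided. Near-equal counts can come from that division alone, so these ratios do not show how far each entry was covered.

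The rest of the translation machinery was read from the same fit. Of 7 elongation factor genes 6 were tested and 6 were below 0, with a median log2 fold change of -0.28 and 0 past the edgeR threshold (1 lower at an unadjusted p under 0.05, 0 by DESeq2). Over all genes tested, 49.5% were below 0. The list summed to 1929 and 1104 RPM in KO and 1081 and 1125 RPM in control. Of 27 genes of initiation and mRNA binding 16 were tested and 7 were below 0, with a median of 0.04 and 0 past the threshold (0 at an unadjusted p under 0.05, 0 by DESeq2), and their sums were 1396 and 1039 RPM in KO and 731 and 788 RPM in control. The initiation list was thus above both controls in both KO libraries in RPM, as were 57.0% of all tested genes, and its difference from the ribosomal protein list was not tested.

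Of 15 ribosome assembly genes only Nop60B, the pseudouridine synthase of the box H/ACA particles that modify rRNA, had enough reads to be tested. It had 54 and 35 reads in KO (95.3 and 67.6 RPM) and 312 and 81 reads in control (235 and 177 RPM), with both KO libraries below both controls. Its log2 fold change was -2.04 ± 0.36 (SE, adjusted p 0.0033, edgeR), and DESeq2 called it as well. Of 73 genes of the mitochondrial ribosome 2 were tested and 0 passed the edgeR threshold (1 higher at an unadjusted p under 0.05, 0 by DESeq2). Their sums were 473 and 432 RPM in KO and 190 and 199 RPM in control. Both KO sums lay above both control sums, as did 57.0% of all tested genes in RPM, and the difference from the cytosolic ribosomal proteins was not tested.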

How the data were processed

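The deposited values are counts of reads per transcript entry, not normalized. The authors joined paired reads (BBMerge), trimmed the linker (BBDuk), subtracted reads matching non-coding RNA of the fly and mapped what was left, in the sense direction only, with Bowtie2 v2.4.1 to Ensembl v99 transcripts whose mitochondrial entries they had edited. The submitters' processing notes name BDGP6, Bowtie2 and bedtools. The counting step is not given in the sources used here. Here, 34713 of 34882 entries outside mtDNA were matched to genes of the Ensembl 115 annotation (BDGP6.54) and counts were summed per gene, which gave 17846 features.

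Genes were tested with edgeR 4.0.16 in R 4.3.3 (filterByExpr, TMM factors, glmQLFTest, Benjamini-Hochberg, threshold 0.05), all 4 libraries in 1 fit without a replicate block. DESeq2 1.42.0, other scalings, filters, a replicate block, transcript entries and leaving out each library were alternatives. The edgeR and DESeq2 scripts were tested on simulated data. Sums were compared with exact permutation tests (scipy 1.17.1). Levels between genes used the coding length of the entry with the most reads.

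Members and lists were chosen with earlier results of these data known. Named genes were members past the threshold, the 5 highest of each subunit, the 3 largest non-overlapping changes in each direction, fixed role and paralogue lists, members not tested, and called genes of other lists. Other members were named after their values were seen. Sequences, promoter motifs and protein identity of paralogues were not analysed here, and values of some single members are not reported here.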

Additional observations from a re-analysis of the deposited data

How the results depend on the processing

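On the log2 scale, the difference of the summed RPM (0.11) reversed to -2.004 over all reads, to -0.25 without the fat body markers in the denominator, and ranged from -0.18 to 0.40 when each library was left out. The log2 RpL to RpS ratio (0.09) reversed to -0.034 for medians and ranged from -0.0067 to 0.18 when each library was left out.

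Of the counts of members called (1 higher, 2 lower), the number lower was 0 with DESeq2, 0 without TMM factors, 0 without TMM factors and without fat body markers, 0 for transcript entries, 1 without a filter, 1 with at least 10 reads in each library, and 79 with all reads as the library size. The number higher was 0 with at least 10 reads in each library, where RpL34a was not tested. When each library was left out the number lower ranged from 0 to 15 and the number higher from 0 to 1.

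Of all genes (125 higher, 210 lower), DESeq2 called 68 higher. With at least 10 reads in each library 108 were lower, without TMM factors 735 were higher and 117 lower, without TMM factors and fat body markers 194 higher and 121 lower, and with all reads as the library size 31 higher and 2672 lower. When each library was left out, 119 to 436 were lower and 92 to 175 higher. Higher calls made up 37.3% of the calls with TMM factors, 86.3% without them and 61.6% without them and fat body markers.

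Whether the replicate numbers pair the libraries could not be settled, since the labels name no shared batch and 2 pairs cannot show one (correlation of the same-numbered deviations 0.187). With the replicate block, 1 member was higher and 7 lower (RpL11, RpL13, RpL14, RpL27, RpL27A, RpLP2 and RpS3), beside 251 higher and 377 lower of all genes.

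Of single genes, relative to the median of all genes, RpL4 reversed to -0.036 without a filter and ranged from -0.42 to 0.28 when each library was left out, RpL5 reversed to -0.011 without a filter and ranged from -0.27 to 0.25, and for single transcript entries RpL3 reversed to 0.43 and RpS5a to 0.31. None of these 4 genes was called with TMM factors. The median of members minus that of all genes kept its sign in each fit (-1.09 to -0.45), but a change of scaling could hardly alter it. The causes were not tested. Depth limits the result, as the members had a median of 17.5 to 44 reads per library.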
